A study of Mus musculus with 12 samples.

Results

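Interferon regulatory factors (IRFs) are transcription factors that share a DNA-binding domain and recognise GAAA repeats in the promoters of interferon and interferon-stimulated genes. The family was followed here in mouse splenic dendritic cells (DCs) as 8 genes, Irf1, Irf2, Irf3, Irf4, Irf5, Irf7, Irf8 and Irf9. They were taken from the count table by their Ensembl identifiers, as annotated in GENCODE M21, and are 8 of 57009 identifiers. All 8 were among the 14413 genes with enough counts to be tested.

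All libraries came from DCs of C57BL/6 mice that carried B16 melanoma cells secreting Flt3 ligand, a cytokine that enlarges the DC pool, so the DC only cells had this exposure too. The DCs were enriched from spleen by removing T, B and NK cells and macrophages with beads, cultured for 3 h, and sorted on CD11b and CD11c afterwards. The 4 groups of 3 libraries were DCs cultured alone (DC only), with the bacterial product lipopolysaccharide (LPS), with B6 effector memory T cells, which are syngeneic to the DCs (SynTem), or with memory T cells of BALB/c origin specific for alloantigen (AlloTem). SynTem and AlloTem cultures therefore differ in T cell strain as well as in antigen recognition, and these cannot be told apart. The labels do not say whether the 3 libraries of a group came from separate animals or cultures, and each p-value below therefore measures only the spread among these libraries, which may be technical in part. Replicate number and deposited batch number were the same in all 12 libraries.

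The libraries held 13903574 to 21861156 counts. Levels below are CPM, counts scaled to a common library size, with TMM (trimmed mean of M values), a correction for differences in RNA composition. The DC genes Itgax, Flt3 and Zbtb46 were present in every library. A list of 10 B cell and plasma cell markers summed to 298 to 455 CPM over the libraries, so transcripts of this list were present too. Cd79a gave at most 1.82 CPM of this, so other markers of the list gave most of the sum. The summed level of 23 T cell markers was 66.7 to 105 CPM in DC only and 71.6 to 197 in LPS libraries. It was 330 to 725 in SynTem and 158 to 318 in AlloTem libraries, so T cell transcripts were present in the sorted cells. Neutrophil markers, a list of 8, summed to 27.2 to 103.5 CPM in DC only and 72.5 to 202.5 in LPS libraries. They summed to 58 to 866 CPM in SynTem and 68.7 to 180 in AlloTem libraries. All 8 were positive against DC only in LPS, SynTem and AlloTem. Macrophage markers, 7 tested, had 6 positive in each of these comparisons. Neither list had a marker at an adjusted p under 0.05 by edgeR. The part of these cells in the levels below was not tested. Summed Y-linked transcripts lay between 131 and 220 CPM in the third library of every group and in SynTem 2, and between 0 and 10.3 CPM in the other 7 libraries. DC only 1 and DC only 2 were the closest pair of replicates, with a chi-square per degree of freedom of 5.82 against 24.1 to 73.0 for the other pairs, and were kept as separate libraries, as labelled; this measure does not show whether they came from separate cultures.

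In DCs the family divides by role. IRF4 and IRF8 are partner-dependent factors that direct DC subsets, IRF8 in type 1 conventional DCs and plasmacytoid DCs and IRF4 in type 2 conventional DCs, where it also supports antigen presentation to CD4 T cells and migration. IRF1 is induced by interferon gamma and by NF-kB, and IRF2 binds the same sites and often opposes it. IRF3, IRF5 and IRF7 lie latent until kinases downstream of nucleic acid sensors or Toll-like receptors phosphorylate them, and IRF7 is itself an interferon-induced gene. IRF9 is the DNA-binding subunit of ISGF3, the factor that carries the type I interferon signal to DNA.

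Promoters of the 3 genes whose levels ranged most over the libraries are shown from RefSeq (GRCm38.p6), from 250 bases before to 50 after the annotated start, on the strand of the gene. Irf4 (chr13:30748983-30749282, plus strand) is shown because it is the member that passed the test, Irf1 (chr11:53769764-53770063, plus strand, the first of its 2 annotated starts) because both T cell groups were high, and Irf7 (chr7:141266375-141266674, minus strand) because it varied most between replicates. Capitals mark matches to any of 4 motifs searched on both strands.
Irf4: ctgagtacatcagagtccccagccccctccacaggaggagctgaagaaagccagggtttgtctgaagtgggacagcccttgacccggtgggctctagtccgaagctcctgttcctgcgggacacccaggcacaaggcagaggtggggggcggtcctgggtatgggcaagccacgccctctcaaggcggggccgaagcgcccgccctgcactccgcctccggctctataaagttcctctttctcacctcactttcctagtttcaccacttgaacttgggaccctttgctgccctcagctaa
Irf1: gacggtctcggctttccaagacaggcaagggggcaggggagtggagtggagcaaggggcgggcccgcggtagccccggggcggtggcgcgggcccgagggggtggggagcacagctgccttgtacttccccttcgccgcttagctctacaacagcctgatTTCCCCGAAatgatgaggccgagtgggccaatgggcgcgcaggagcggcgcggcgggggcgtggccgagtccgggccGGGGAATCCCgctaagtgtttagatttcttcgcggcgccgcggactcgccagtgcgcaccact
Irf7: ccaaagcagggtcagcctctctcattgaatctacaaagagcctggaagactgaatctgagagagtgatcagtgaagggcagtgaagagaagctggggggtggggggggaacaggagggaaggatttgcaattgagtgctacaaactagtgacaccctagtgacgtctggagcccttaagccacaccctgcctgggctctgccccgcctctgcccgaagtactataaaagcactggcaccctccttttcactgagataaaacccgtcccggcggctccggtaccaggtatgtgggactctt
The motifs were paired GAAA half-sites (GAAANNGAAA), the STAT site GAS (TTCNNNGAA), the AP-1 site (TGANTCA) and the NF-kB site. The Irf1 window held a GAS match 90 bases before the start and an NF-kB match 13 bases before it, while the Irf4 and Irf7 windows held none of the 4 in these letters. Among the other members, the Irf8 window of the first annotated start held 2 GAS matches, at 171 and 153 bases before that start. The Irf8 window of a later start (chr8:120738389-120738688) held 0 matches, as did the window of the second Irf1 start. The Irf2 window held paired GAAA half-sites, a GAS match and an NF-kB match. Of 32851 promoter windows of this length, 3.44% held the paired half-sites, 8.3% the GAS motif, 7.81% the AP-1 motif and 8.46% the NF-kB motif. A match describes letters and does not show that a factor bound there.

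Irf4 was the member that passed the test, and it was higher in DCs cultured with alloantigen-specific T cells than in each of the other groups. The gene lies at chr13:30749226-30766976 on the plus strand (GRCm38). Its level was 358, 477 and 316 CPM in AlloTem 1, 2 and 3. In SynTem 1, 2 and 3 it was 101, 121 and 102 CPM, and in DC only 1, 2 and 3 it was 111, 102 and 89.0 CPM. LPS libraries gave 76.2, 93.5 and 78.9 CPM. The lowest AlloTem library thus stood well above the highest library of the other groups, and the other 3 groups lay close to one another.

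The Irf4 difference between AlloTem and SynTem was 1.83 ± 0.16 on the log2 scale (SE), or 3.55-fold, with an adjusted p of 0.00276 by edgeR's quasi-likelihood test with Benjamini-Hochberg adjustment. It had the smallest p of all genes tested. Within batches 1, 2 and 3 the difference was 1.83, 1.97 and 1.62. Against DC only the same test gave 1.93 ± 0.16, or 3.82-fold (edgeR adjusted p = 0.00096), and against LPS 2.21 ± 0.16, or 4.63-fold (edgeR adjusted p = 0.000544). The lowest of the 9 within-batch differences of AlloTem from another group was 1.62, and their positive sign follows from the lack of overlap. When only the 6 AlloTem and SynTem libraries were fitted, the difference stayed at 1.83 but the edgeR adjusted p rose to 0.103, and 0 genes were called in all. These 3 comparisons share the AlloTem libraries.

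Among the other 3 groups Irf4 followed the order SynTem, DC only, LPS, with means of 108 ± 11.4, 100 ± 10.9 and 82.9 ± 9.31 CPM (SD, n = 3). SynTem and DC only overlapped and differed by 0.11 ± 0.16 on the log2 scale (edgeR adjusted p = 0.91). LPS was 0.28 ± 0.16 below DC only on the log2 scale (edgeR adjusted p = 0.999), again with overlap. SynTem lay above LPS without overlap, by 0.38 ± 0.16 (edgeR adjusted p = 0.589), and did not pass the test.

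**Figure D1:**
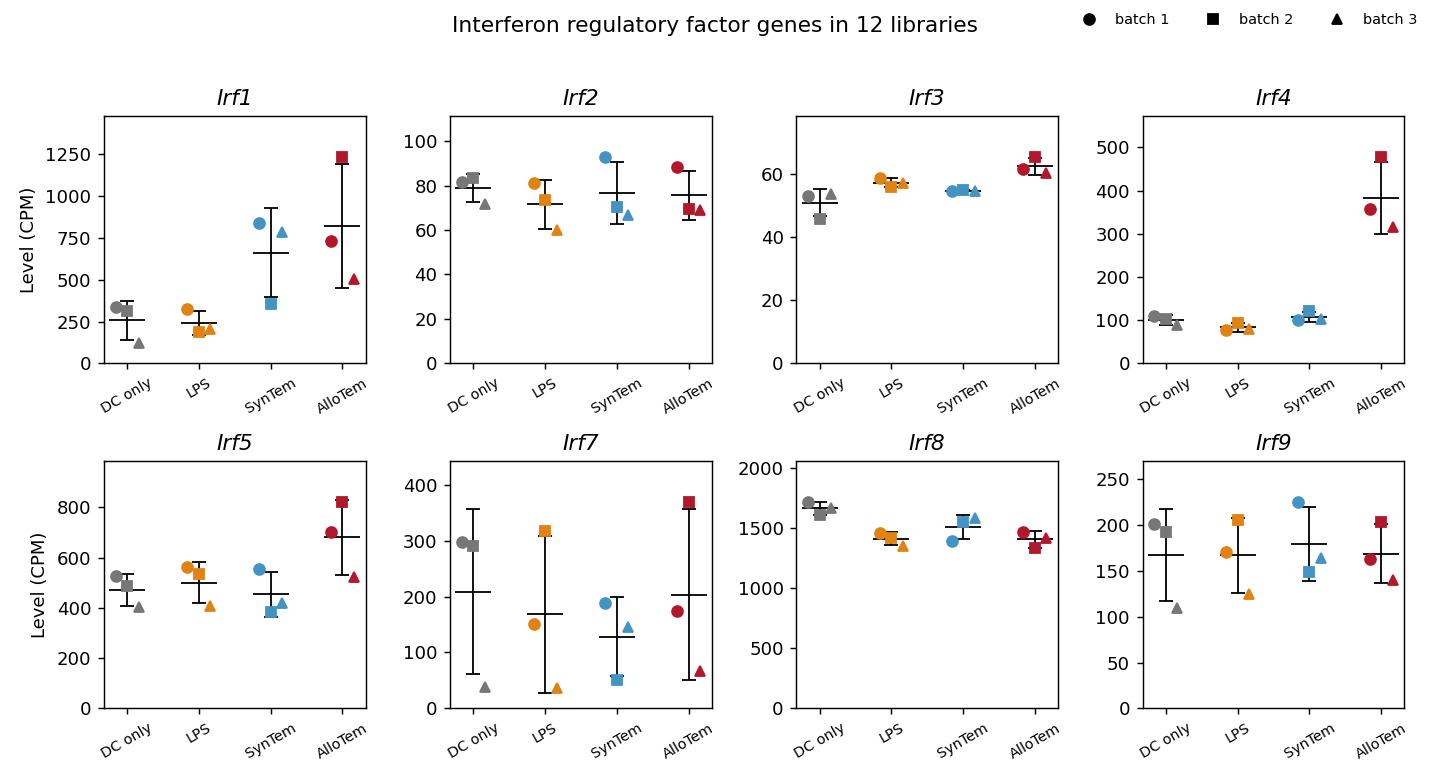
Level of each of the 8 genes in CPM (vertical axis, from 0) in the 4 groups. Points are libraries, with the symbol giving the batch, and the line and bars give mean and SD over 3 libraries. The 3 AlloTem libraries stand apart for Irf4, at 316 to 477 CPM, while Irf7 is spread over most of its range within groups.

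Activated T cells express Irf4 themselves, so T cell transcripts are given beside this result. The 23 T cell markers summed to 318, 186 and 158 CPM in AlloTem 1, 2 and 3 and to 330, 725 and 589 CPM in SynTem 1, 2 and 3. Of these 23 markers, 1 had a positive AlloTem against SynTem difference and the median log2 difference was -1.72, with 0 called and 14 at an unadjusted p under 0.05. The T cell receptor gene Cd3e was 6.55, 2.93 and 3.92 CPM in AlloTem and 10.7, 47.9 and 30.4 CPM in SynTem libraries. Each AlloTem library thus had a lower T cell sum than each SynTem library. A list of 10 genes of activated T cells, mainly cytokines, summed to 23.7, 26.3 and 6.56 CPM in AlloTem libraries. In SynTem libraries the sums were 5.43, 3.93 and 6.05 CPM, and 1 of the 10, Il17a, had 0 counts throughout. All 5 genes with enough counts to test were positive in AlloTem against SynTem, with a median log2 difference of 2.05. Of these 5, 3 had an unadjusted p under 0.05 and 0 were called by edgeR. Against DC only 2 of the 5 were called in AlloTem libraries. Plasmacytoid DC markers, a list of 10, summed to 684 to 911 CPM in AlloTem and 523 to 566 CPM in SynTem libraries, without overlap. All 10 were positive in this comparison, with a median of 0.56, 5 at an unadjusted p under 0.05 and 0 called by edgeR. Against LPS all 10 were positive too, and against DC only 7 were. The part of activated T cells and of plasmacytoid DCs in the Irf4 level was not tested. In these bulk libraries, fewer cells of a type and less RNA per cell cannot be told apart.

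Of the 8 members, 1 was called (adjusted p under 0.05) between AlloTem and SynTem, where 24 of 14413 genes, or 0.167%, were called. That member was Irf4, as it was in the comparison with DC only, where 1.76% of genes were called, and with LPS, where 0.451% were called. No member was called between LPS and DC only, where 0% of genes were called (0 genes, with 531 at an unadjusted edgeR p under 0.05 and 11 called with DESeq2). None was called between SynTem and DC only, where the share of all genes was 0.0902%, or between SynTem and LPS, where it was 0.0486%. Members at an unadjusted p under 0.05 by edgeR numbered 3, 5 and 3 for AlloTem against SynTem, DC only and LPS, where 1381, 1836 and 937 of the 14413 genes reached it. They numbered 1 each for LPS and SynTem against DC only (531 and 1187 of all genes), and 2 for SynTem against LPS (1148 of all genes). In the gene lists, counts at this threshold have the same background, and counts called have as background the shares of all genes called given above. DESeq2 called 0 members in each of the comparisons without AlloTem.

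Members whose groups did not overlap were counted beside the share of such genes among all genes tested. For AlloTem they numbered 2 of 8 members against SynTem (13.0% of all genes), 4 against DC only (17.2%) and 3 against LPS (10.1%). Between LPS and DC only they numbered 2 (9.87%), between SynTem and DC only 3 (14.3%), and between SynTem and LPS 3 (13.9%). The median log2 difference of the 8 members lay between -0.13 and 0.25 in the 6 comparisons, with all genes at a median near 0.

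**Figure D2:**
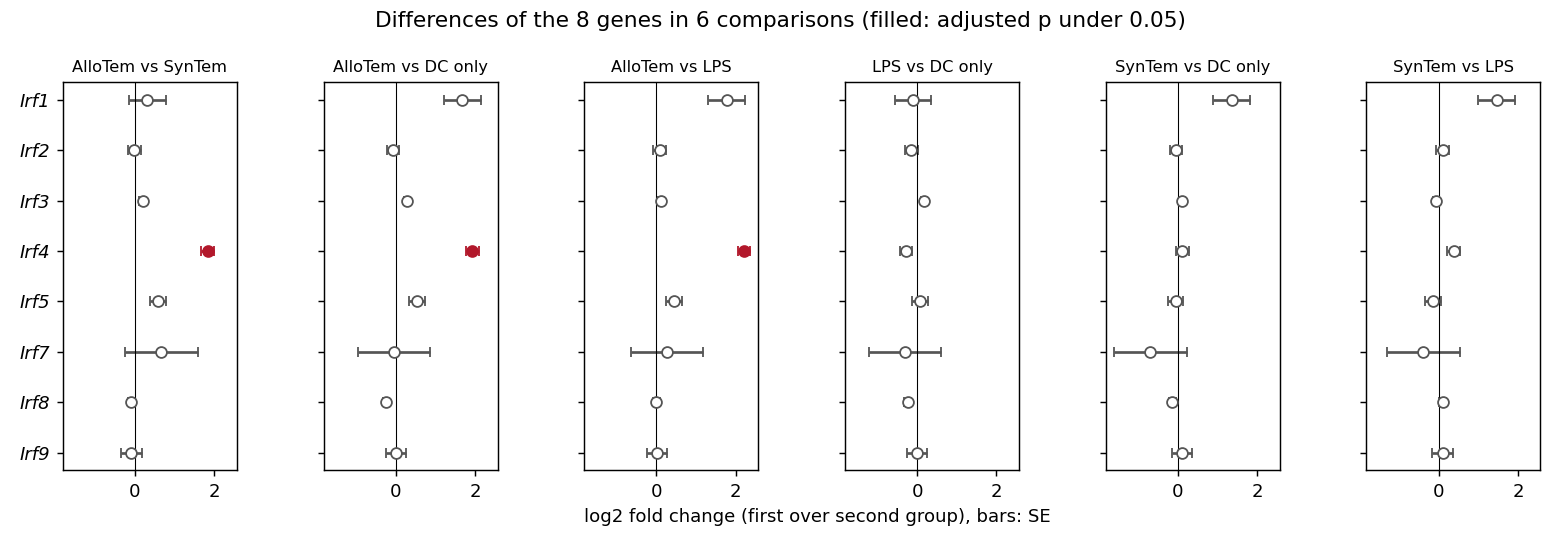
Log2 fold change of the 8 genes (horizontal axis, first over second group) in the 6 comparisons, with SE as bars. Filled points passed an adjusted p of 0.05. Irf4 is filled in the 3 AlloTem comparisons, at 1.83, 1.93 and 2.21, and all other points are open.

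Irf8, which had the highest mean per length over the 12 libraries though not in the AlloTem group, had the smallest range of the 8 genes. It was 1711, 1606 and 1669 CPM in DC only, 1460, 1413 and 1352 in LPS, 1395, 1546 and 1581 in SynTem and 1465, 1330 and 1418 in AlloTem libraries. All 3 stimulated groups lay below DC only without overlap. The log2 difference from DC only was -0.24 ± 0.08 for LPS (edgeR adjusted p = 0.999), -0.14 ± 0.08 for SynTem (edgeR adjusted p = 0.695) and -0.24 ± 0.08 for AlloTem (edgeR adjusted p = 0.218). Each was negative in all 3 batches, as follows from the lack of overlap. None passed the test by edgeR, while DESeq2 gave an adjusted p of 0.0305 for AlloTem. AlloTem and LPS overlapped almost fully. The within-group SD of Irf8 was 0.07 on the log2 scale, at percentile 2.1 of all genes tested.

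Expressed per kilobase of annotated exon, Irf8 averaged 212 CPM per kb over the 12 libraries, followed by Irf5 at 181, Irf1 at 125, Irf7 at 46.9, Irf4 at 34.4, Irf9 at 31.7, Irf3 at 16.4 and Irf2 at 10.2. Irf4 per kb was 20.5 ± 2.22 in DC only, 16.9 ± 1.90 in LPS, 22.03 ± 2.33 in SynTem and 78.2 ± 17.1 in AlloTem libraries (SD, n = 3). As a share of Irf8 on this scale, Irf4 came to 7.67 to 9.30% in DC only, 7.52 to 9.52% in LPS, 9.31 to 11.3% in SynTem and 32.1 to 51.6% in AlloTem libraries. AlloTem cultures thus had the Irf4 to Irf8 ratio farthest from the other groups. The per-length scale uses the merged exons of each gene and is not corrected for which transcripts were made. For Irf7 the merged exons formed 1 block of 3776 bases that covers the whole gene, so its level was divided by the full gene length.

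**Figure D3:**
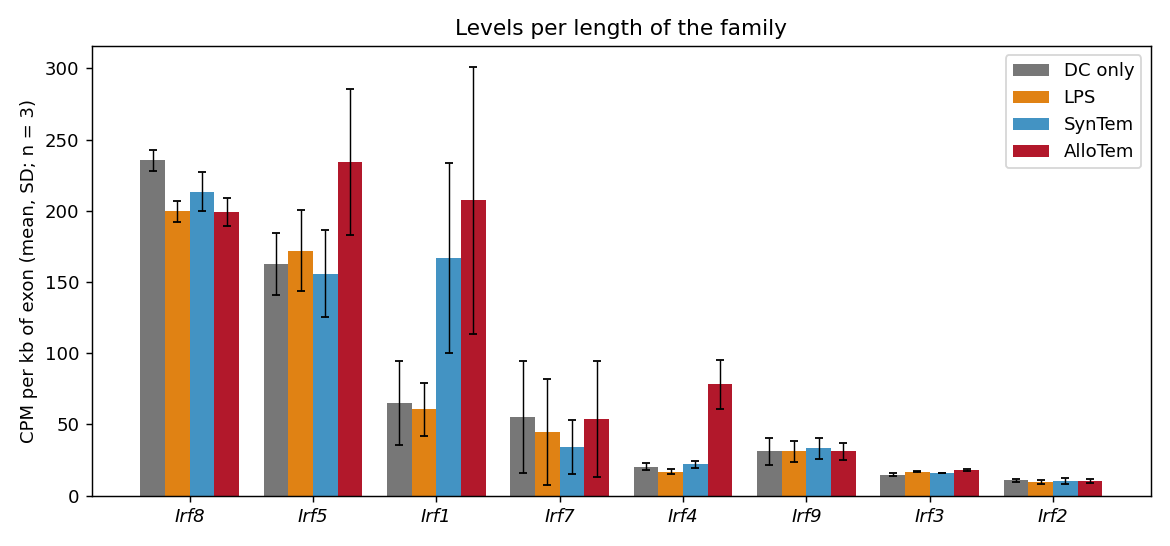
Level per kb of exon (vertical axis, CPM per kb, from 0) of the 8 genes, ordered by their mean over 12 libraries. Bars are means of 3 libraries and lines their SD. Irf8 and Irf5 lead in DC only and LPS, Irf8 and Irf1 in SynTem, and Irf5 and Irf1 in AlloTem, and Irf4 reaches 78.2 in AlloTem against 16.9 to 22.03 elsewhere.

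Genes known to need IRF4 in type 2 DCs, or to be its targets, were followed as a list of 8. Between AlloTem and SynTem 1 was called, 7 had a positive difference and the median log2 difference was 1.48, against -0.01 for all genes. The called gene was Ccl17, a chemokine that attracts CCR4-bearing T cells, at 72.7, 190 and 66.1 CPM in AlloTem and 0.520, 1.77 and 2.49 CPM in SynTem libraries (log2 difference 6.07 ± 0.72, edgeR adjusted p = 0.0126). Against DC only 3 of the 8 were called, all higher, with a median of 2.16. They were Ccl17, which did not exceed 0.343 CPM in any DC only library, Pdcd1lg2, which encodes the PD-1 ligand PD-L2 (log2 difference 2.62 ± 0.45, edgeR adjusted p = 0.0191), and Prdm1, which encodes the repressor Blimp-1 (3.01 ± 0.59, edgeR adjusted p = 0.032). Against LPS 2 were called, Ccl17 and Pdcd1lg2 (2.80 ± 0.45 for the latter, edgeR adjusted p = 0.0289), with a median of 1.51. Neither LPS nor SynTem had a called gene of this list against DC only, where 0% and 0.0902% of all genes were called. With so few calls among all genes, this does not set AlloTem apart. The medians there were 0.38 and 0.65, and 2 of the 8 had an unadjusted p under 0.05 by edgeR each time. Klf4, a factor that works with IRF4 in type 2 DCs, was -0.37 ± 0.23 between AlloTem and SynTem (edgeR adjusted p = 0.655).

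The receptors and factors that raise Irf4, such as the IL-4 receptor, the GM-CSF receptor and NF-kB, formed a list of 15. Between AlloTem and SynTem 0 were called by edgeR, 5 had an unadjusted p under 0.05 and 13 were positive. The smallest p was that of Stat5a, the STAT of the GM-CSF receptor, at 280, 473 and 240 CPM in AlloTem and 185, 167 and 141 CPM in SynTem libraries (log2 difference 1.01 ± 0.21, edgeR adjusted p = 0.106). Its groups did not overlap, and it did not pass the test. Against DC only 1 of the 15 was called, Il4ra, the IL-4 receptor chain (1.31 ± 0.28, edgeR adjusted p = 0.0438), and 14 were positive.

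Among 17 DNA-binding partners and co-repressors of IRFs, 0 were called between AlloTem and SynTem by edgeR, with 7 at an unadjusted p under 0.05. The smallest p was that of Batf3, a type 1 DC factor that pairs with IRF8 (log2 difference 1.15 ± 0.25, edgeR adjusted p = 0.117). Against DC only 1 rose and 2 fell in AlloTem libraries. Batf, the AP-1 family partner of IRF4, rose by 1.04 ± 0.21 (edgeR adjusted p = 0.0362), from 18.5, 18.2 and 11.6 CPM to 28.4, 40.7 and 29.9 CPM. Bcl6, a repressor, fell by 1.13 ± 0.21 (edgeR adjusted p = 0.0257), and Nfatc2, a calcium-activated factor, fell by 0.68 ± 0.12 (edgeR adjusted p = 0.0241). Bcl6 was 104, 88.5 and 115 CPM in AlloTem against 223, 230 and 220 CPM in DC only libraries.

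The 12 type 1 DC genes that go with IRF8 had 0 called members in any of the 6 comparisons by edgeR. Their medians lay between -0.08 and 0.04. Up to 7 had an unadjusted p under 0.05, in AlloTem against DC only, where 6 of the 12 were positive. A median near 0 thus covered differences of both signs. The 8 type 1 DC markers summed to 1421 to 2332 CPM over all libraries, and the 8 type 2 DC markers to 616 to 1295 CPM. Neither set separated the groups by its summed level. Among the type 2 markers Clec10a, a lectin, rose in AlloTem against DC only, by 1.39 ± 0.26 (edgeR adjusted p = 0.0255).

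Irf1 was high in both T cell groups and variable within them. It was 732, 1233 and 507 CPM in AlloTem and 843, 358 and 789 CPM in SynTem libraries. In DC only it was 339, 311 and 124 CPM, and in LPS 326, 190 and 207 CPM. Every library with T cells lay above every library without them, while AlloTem and SynTem overlapped, as did LPS and DC only.

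Against DC only the Irf1 difference was 1.68 ± 0.47 for AlloTem (edgeR adjusted p = 0.135) and 1.36 ± 0.47 for SynTem (edgeR adjusted p = 0.407). Against LPS the differences were 1.77 ± 0.47 (edgeR adjusted p = 0.208) and 1.46 ± 0.47 (edgeR adjusted p = 0.412). None passed the test. The 12 within-batch values ran from 0.20 to 2.70, and their positive sign follows from the lack of overlap. DESeq2 gave adjusted p-values of 0.00456 and 0.00369 for AlloTem against DC only and LPS. With summed Y-linked level as a covariate the edgeR adjusted p-values were 0.0186 and 0.0401. AlloTem and SynTem differed by 0.31 ± 0.46 (edgeR adjusted p = 0.881), with batch values of -0.20, 1.78 and -0.64, so the batches did not share a direction. With the covariate this difference was -0.06. The exons of Gm17334, on the opposite strand, overlap 3.4% of the exon bases of Irf1, and strand use in counting is not given in the sources used here.

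T cell markers were also higher in both T cell groups. Against DC only 9 of 23 were called in AlloTem, where 1.76% of all genes were called. In SynTem 7 of 23 were called, where 0.0902% of all genes were. The median log2 difference was 1.96 in AlloTem and 3.22 in SynTem. In AlloTem 15 and in SynTem 22 of the 23 had an unadjusted p under 0.05 by edgeR. T cells express Irf1, and their part in its level was not tested.

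Genes that respond to interferon gamma and IRF1 were followed as a list of 20, of which 19 were tested. Against DC only, AlloTem libraries had 2 called members, both higher, 18 positive and a median log2 difference of 0.98. Of the 19, 8 had an unadjusted p under 0.05 by edgeR, and 1.76% of all genes were called in this comparison. Socs1, a feedback inhibitor of JAK kinases, rose by 4.14 ± 0.79 (edgeR adjusted p = 0.0293), from 12.5, 9.60 and 2.16 CPM to 91.0, 242 and 93.2 CPM. Cd274, which encodes PD-L1, rose by 3.08 ± 0.62 (edgeR adjusted p = 0.0359), from 56.6, 58.9 and 30.5 CPM to 506, 573 and 156 CPM. SynTem against DC only had 0 called by edgeR, 9 at an unadjusted p under 0.05, 16 positive and a median of 1.56. Of all genes, 0.0902% were called there, so the counts called do not set AlloTem apart from SynTem. The smallest p of the list in SynTem against DC only was that of Gbp2, a guanylate-binding protein (2.15 ± 0.41, edgeR adjusted p = 0.105). Between AlloTem and SynTem 0 were called by edgeR, 3 had an unadjusted p under 0.05 and the median was 0.12. LPS against DC only, where 0% of all genes were called, had 0 called and 0 at an unadjusted p under 0.05, with a median of 0.05.

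Of the 20 interferon genes, 14 had 0 counts in every library and the list held 370 counts in all, of which 330 were Ifng, the single member with enough counts to test. Ifng was 5.79, 1.54 and 0 CPM in AlloTem, 3.64, 1.46 and 1.13 in SynTem, 3.46, 0.119 and 0 in LPS and 0.689, 0.971 and 0.049 in DC only libraries. The groups overlapped.

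Irf2, the counterpart of Irf1, ranged from 59.8 to 92.7 CPM over all libraries, with group means of 79.1 ± 6.34 in DC only, 71.5 ± 10.9 in LPS, 76.6 ± 14.1 in SynTem and 75.5 ± 10.9 CPM in AlloTem (SD, n = 3). The 6 log2 differences lay between -0.15 and 0.10, each with an SE of 0.16 and overlapping groups.

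None of the sensor-activated members Irf3, Irf5 and Irf7 passed the test by edgeR. Irf3 was 53.3, 46.0 and 53.9 CPM in DC only, 58.8, 56.0 and 57.4 in LPS, 54.6, 55.1 and 54.8 in SynTem and 61.9, 65.5 and 60.3 in AlloTem libraries. AlloTem lay above the other groups without overlap, with a log2 difference of 0.29 ± 0.08 from DC only (edgeR adjusted p = 0.122), 0.19 ± 0.08 from SynTem (edgeR adjusted p = 0.483) and 0.12 ± 0.08 from LPS (edgeR adjusted p = 1.0). None passed by edgeR, and DESeq2 gave 0.0216 for the difference from DC only. With a within-group SD of 0.07 on the log2 scale, Irf3 was at percentile 2.54 of all genes. The opposite-strand gene Bcl2l12 shares 2.56% of its exon bases.

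Irf5, which acts below MyD88 and drives inflammatory cytokine genes, was 701, 819 and 522 CPM in AlloTem, 555, 385 and 421 in SynTem, 561, 533 and 406 in LPS and 529, 487 and 404 in DC only libraries. AlloTem 3 fell within the range of the other groups, so each comparison overlapped. The log2 difference of AlloTem was 0.59 ± 0.20 from SynTem (edgeR adjusted p = 0.34), 0.53 ± 0.20 from DC only (edgeR adjusted p = 0.277) and 0.44 ± 0.20 from LPS (edgeR adjusted p = 0.754), positive in all 3 batches each time. With summed Y-linked level as a covariate the edgeR adjusted p was 0.00865 against DC only and 0.03 against LPS, but 0.111 against SynTem. Plasmacytoid DCs express Irf5, and the part of their higher marker sum in AlloTem than in SynTem libraries was not tested. The exons of Tnpo3, on the opposite strand, overlap 14.1% of its exon bases, the largest such share in the family.

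Of 7 cytokine genes that IRF5 regulates, 6 were tested. Against DC only 1 was called in AlloTem libraries, Il6, at 36.6, 40.3 and 22.6 CPM against 5.13, 4.86 and 2.01 CPM (log2 difference 3.06 ± 0.51, edgeR adjusted p = 0.0178), and all 6 were positive. Between AlloTem and SynTem 0 were called by edgeR and 2 had an unadjusted p under 0.05. LPS against DC only had 0 called by edgeR and 3 at an unadjusted p under 0.05, with a median of 1.64. The AlloTem median against DC only was 1.75, also with 3 at this threshold. Of all genes, 1.76% were called in AlloTem and 0% in LPS against DC only, so the call does not set AlloTem apart from LPS. The 20 kinases and adaptors upstream of IRF3, IRF5 and IRF7 had 0 called in any comparison by edgeR. Between AlloTem and SynTem 6 had an unadjusted p under 0.05, the smallest p being that of Traf6, an adaptor ligase below MyD88 (0.63 log2, edgeR adjusted p = 0.161).

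Irf7, itself induced by interferon, varied widely among the libraries of every group. Its level was 297, 290 and 37.9 CPM in DC only, 151, 317 and 37.1 in LPS, 189, 50.5 and 146 in SynTem and 175, 368 and 66.9 in AlloTem libraries. The low libraries were DC only 3, LPS 3, AlloTem 3 and SynTem 2, which are among the 5 with Y-linked transcripts, the other being SynTem 3. The within-group SD of Irf7 was 1.41 on the log2 scale, at percentile 97.6 of all genes tested. Its AlloTem against SynTem difference of 0.66 ± 0.92 (edgeR adjusted p = 0.872) was -0.11, 2.85 and -1.12 in batches 1, 2 and 3. The sign was not shared. The low libraries of these groups were SynTem 2 and AlloTem 3, so batches 2 and 3 each set a low library against a higher one. The difference became -0.44 ± 0.37 with Y-linked level as a covariate (edgeR adjusted p = 0.694).

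Irf9 was 201, 192 and 109 CPM in DC only, 170, 206 and 125 in LPS, 225, 149 and 164 in SynTem and 163, 204 and 140 in AlloTem libraries. Its 6 log2 differences lay between -0.09 and 0.10, each with an SE of 0.26. In every group the libraries ranked by Irf9 as they did by Irf7. Irf9 varied over a range of 1.04 on the log2 scale, against 3.31 for Irf7.

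The 24 response genes of ISGF3 had the same low libraries as Irf7. Their summed level was 1734, 1746 and 341 CPM in DC only, 1024, 1869 and 354 in LPS, 1196, 388 and 1039 in SynTem and 977, 1899 and 350 in AlloTem libraries. In no comparison was any of the 24 called by edgeR or at an unadjusted p under 0.05. The medians of their log2 differences lay between -0.49 and 0.23. Natural killer cell markers summed to 8.18 to 167 CPM in DC only and 11.4 to 564 in LPS libraries. They summed to 75.8 to 395 CPM in SynTem and 41.5 to 577 in AlloTem libraries, and were highest in LPS 1 and AlloTem 1 (564 and 577 CPM). Plasmacytoid DC markers, some of them interferon-induced such as Bst2, gave sums from 567 to 975 CPM in DC only libraries and from 577 to 768 CPM with LPS. Their sums were 523 to 566 CPM in SynTem and 684 to 911 CPM in AlloTem libraries. The part of natural killer cells and of plasmacytoid DCs in the Irf7 level was not tested.

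**Figure D4:**
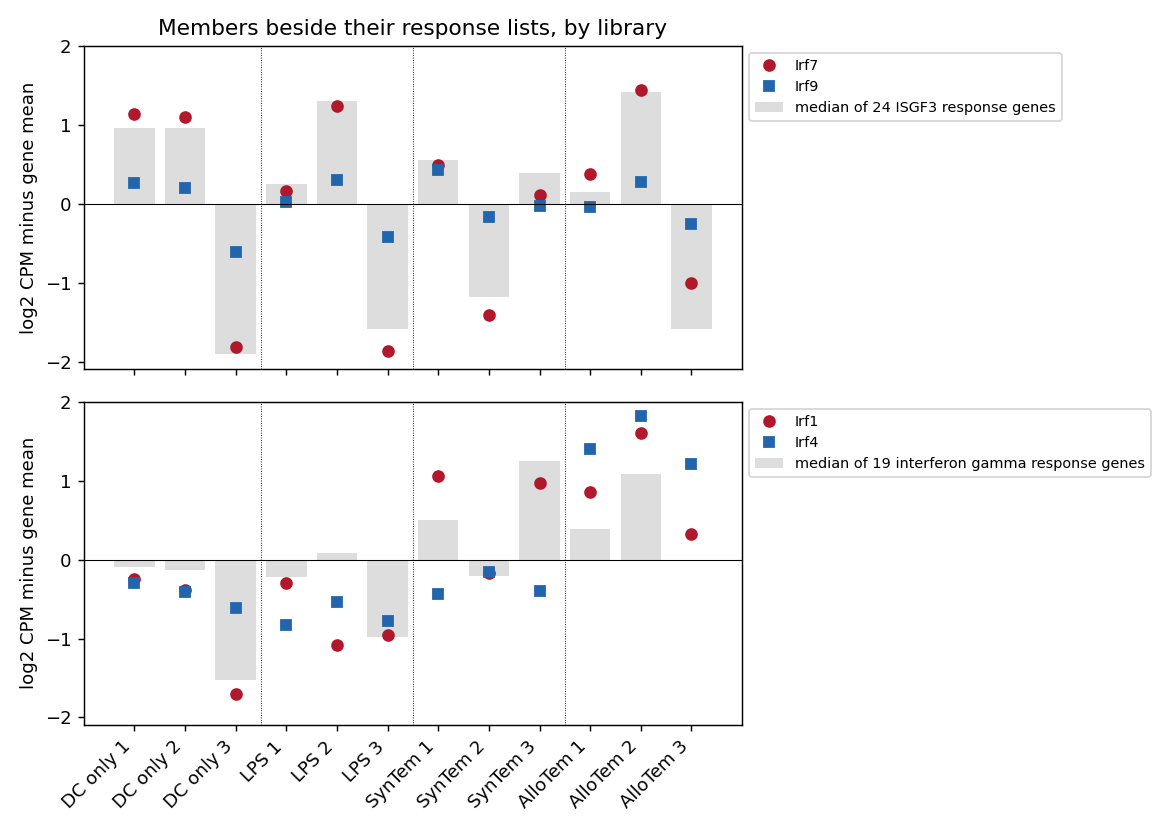
Log2 CPM minus the mean of each gene over 12 libraries (vertical axis), by library. Grey bars are the median over 24 ISGF3 response genes (top) or 19 interferon gamma response genes (bottom). Irf7 and the ISGF3 genes are low in DC only 3, LPS 3, SynTem 2 and AlloTem 3, and Irf4 is above its mean in the 3 AlloTem libraries alone.

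Genes with the most similar profile were named for Irf1, Irf4 and Irf7, the members whose log2 CPM ranged over at least 2 units, by the root mean square difference of centred log2 CPM over the 12 libraries. Nearest to Irf4 were Rnf24 at 0.37, Ahr at 0.38 and D730005E14Rik at 0.39. Rnf24 encodes a RING finger protein and was 47.9, 111 and 78.3 CPM in AlloTem against 15.6, 22.7 and 22.4 CPM in SynTem libraries. Ahr, which encodes the aryl hydrocarbon receptor, was 105, 201 and 152 CPM in AlloTem against 70.4, 64.2 and 60.4 CPM in SynTem libraries. Nearest to Irf1 were its overlapping neighbour Gm17334 at 0.21, Dse at 0.44 and Abtb2 at 0.46. Nearest to Irf7 were the interferon-induced genes Xaf1 at 0.20, Ube2l6 at 0.20 and Lgals3bp at 0.28. These are descriptions of likeness, without a test.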

How the data were processed

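The 12 libraries were prepared with Illumina TruSeq kits and sequenced as single-end reads, per the labels' protocols. The authors deposited whole-number counts per gene, not normalized, as the file's values show. Reads were placed on mm10, per the submitters' processing notes. For the aligner, the counter, its strand setting and its annotation, the entry is the same: not given in the sources used here. Identifiers were matched to GENCODE M21 symbols (52080 of 57009), and 31565 had 0 counts in every library. Genes were kept with filterByExpr (minimum count 10) and tested with edgeR 4.0.16 in R 4.3.3, with TMM scaling, 1 mean per group over 12 libraries, 8 residual degrees of freedom, and Benjamini-Hochberg adjustment over 14413 genes. The SE of a log2 difference was its size over the square root of the F statistic. Within-batch ratios used CPM plus 0.5, and centred profiles used a prior count of 2. DESeq2 1.42.0 and limma 3.58.1 were alternatives. Precision is limited by 3 libraries per group.

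Replicate and batch numbers agreed in 12 of 12 libraries and were used to pair the libraries, but this agreement does not show that they were paired. Deviations from group means had a median correlation of 0.247 over 18 same-number pairs (-0.249 to 0.632). Over 36 other pairs it was -0.201 (-0.481 to 0.476), so the ranges overlapped. Y-linked levels did not follow the number in every group, so within-batch differences may compare unlike libraries. All 8 members are described. Of each list, up to 3 called genes with the smallest p are named, or the gene with the smallest p where none is called. Cd3e, Klf4, Il17a, Clec10a, Ifng and the DC checks were named outside this rule after their values were seen. Members, lists and markers were chosen with earlier results of these data known.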

Additional observations from a re-analysis of the deposited data

How the results depend on the processing

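Irf4 was called in AlloTem against SynTem in 15 of 16 alternatives (log2 1.63 to 1.96), the exception being the fit to only the 6 libraries compared, where 0 members and 0 genes were called (Irf4 1.83, edgeR adjusted p = 0.103). It was called in all 16 alternatives against DC only (1.75 to 2.07) and against LPS (2.02 to 2.34). Over the members and alternatives, 677 differences kept direction and side of the threshold, 81 reversed, 9 passed the threshold and 1 lost it. The reversals were all in differences that had not passed the test, and the cause was not tested. With the replicate block, which pairs libraries by number, no member's call changed, and Irf4 in AlloTem against SynTem was 1.82 ± 0.11 (edgeR adjusted p = 0.000267). The lowest value of a member was 37.1 CPM (Irf7 in LPS 3).

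DESeq2 called 4 members in AlloTem against DC only (Irf1, Irf3, Irf4 and Irf8) and 2 against LPS (Irf1 and Irf4). The Y-linked covariate gave 3 and 3 (Irf1, Irf4 and Irf5), and the replicate block without DC only 2 and SynTem 2 gave 2 against LPS (Irf4 and Irf5).

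Counts of all genes called moved more. In AlloTem against SynTem (24) they were 318 with DESeq2, 41 without a filter on low counts, 78 with the replicate block, 39 with the Y-linked covariate, 0 with only the 6 libraries, 2 without DC only 2 and SynTem 2, and 37 with the block as well. In AlloTem against DC only (253) they were 677 with DESeq2, 420 with the block, 603 with the covariate, 98 with the 6 libraries and 16 without DC only 2 and SynTem 2. In AlloTem against LPS (65) they were 286 with DESeq2, 136 with the block, 189 with the covariate, 9 with the 6 libraries, 25 without DC only 2 and SynTem 2, and 198 with the block as well. In LPS against DC only (0) they were 11 with DESeq2 and 1 without DC only 2 and SynTem 2, with or without the block. In SynTem against DC only (13) they were 255 with DESeq2, 2 with limma voom, 33 without a filter, 21 with the block, 44 with the covariate, 1 with the 6 libraries and 1 without DC only 2 and SynTem 2. In SynTem against LPS (7) they were 198 with DESeq2, 1 with limma voom, 16 without a filter, 11 with a mean of at least 5 CPM, 28 with the block, 38 with the covariate, 0 with the 6 libraries, 0 without DC only 2 and SynTem 2, and 12 with the block as well.

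Leaving out each library of a comparison in turn, which leaves a group with 2, changed no count of members called. Genes called ranged from 3 (without SynTem 2) to 47 (without AlloTem 3) in AlloTem against SynTem, from 42 (without DC only 1) to 323 (without AlloTem 3) against DC only, and from 9 (without LPS 2) to 55 (without AlloTem 3) against LPS. They ranged from 0 to 1 (without DC only 2) in LPS against DC only, from 0 to 56 (without SynTem 1) in SynTem against DC only, and from 0 to 37 (without SynTem 1) in SynTem against LPS.

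Reversed log2 differences with the Y-linked covariate were -0.058 for Irf1 and -0.436 for Irf7 in AlloTem against SynTem, 0.438 for Irf7 against DC only, 0.049 for Irf1 and 0.023 for Irf9 in LPS against DC only, 0.075, 0.151 and 0.874 for Irf2, Irf5 and Irf7 in SynTem against DC only, and 0.076 and 1.106 for Irf5 and Irf7 against LPS. With the replicate block they were 0.045 for Irf7 in AlloTem against DC only, 0.014 for Irf9 in LPS against DC only, and 0.026 and 0.354 for Irf7 in SynTem against DC only and LPS. Without DC only 2 and SynTem 2 they were 0.278 for Irf7 in AlloTem against DC only, 0.058, 0.005 and 0.107 for Irf1, Irf7 and Irf9 in LPS against DC only, and 0.051 and 0.064 for Irf2 and Irf5 in SynTem against DC only. With the block as well they were -0.189 and -0.799 for Irf1 and Irf7 in AlloTem against SynTem, 0.069 for Irf1 in LPS against DC only, 0.034, 0.064 and 0.628 for Irf2, Irf5 and Irf7 in SynTem against DC only, and 0.061 and 1.216 for Irf5 and Irf7 against LPS. Limma voom gave 0.134 for Irf7 in AlloTem against DC only. For Irf8 in AlloTem against LPS, no filter gave 0.004 and the 5 CPM filter 0.007. For Irf9 in LPS against DC only, RLE scaling, DESeq2 and the 6 libraries gave 0.001, limma voom 0.018 and the 5 CPM filter 0.013.

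Leaving out 1 library at a time, log2 differences that changed sign ranged as follows. In AlloTem against SynTem the range ran for Irf1 from -0.103 to 0.578, Irf2 from -0.144 to 0.145, Irf7 from -0.092 to 1.09 and Irf9 from -0.251 to 0.11. In AlloTem against DC only the range ran for Irf2 from -0.192 to 0.005, Irf7 from -0.785 to 0.392 and Irf9 from -0.222 to 0.16. In AlloTem against LPS the range ran for Irf2 from -0.046 to 0.18, Irf7 from -0.478 to 1.115, Irf8 from -0.036 to 0.035 and Irf9 from -0.157 to 0.193. In LPS against DC only the range ran for Irf1 from -0.431 to 0.149, Irf5 from -0.023 to 0.209, Irf7 from -1.152 to 0.165 and Irf9 from -0.235 to 0.167. In SynTem against DC only the range ran for Irf2 from -0.206 to 0.044, Irf5 from -0.232 to 0.042 and Irf9 from -0.134 to 0.248. In SynTem against LPS the range ran for Irf2 from -0.064 to 0.199, Irf7 from -0.864 to 0.453 and Irf9 from -0.097 to 0.281.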

Other observations

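The make-up of the family is given as the share of each member in the summed level per kb of exon over the 8 genes. That sum was 480 to 675 CPM per kb in DC only, 457 to 599 in LPS, 533 to 741 in SynTem and 643 to 1042 in AlloTem libraries. Irf8 held 35.9 to 49.2% of it in DC only and 33.4 to 41.9% in LPS, against 26.7 to 41.1% in SynTem and 18.1 to 31.3% in AlloTem libraries. Irf1 held 6.49 to 12.6% in DC only, 7.97 to 13.7% in LPS, 16.9 to 29.1% in SynTem and 19.9 to 29.8% in AlloTem libraries. Irf4 held 8.99 to 10.01% in AlloTem and 2.60 to 4.64% in all other libraries. Irf5 held 21.2 to 32.3% over all 12 libraries. The shares sum to a whole, so a higher share of 1 member lowers the others, and no test was made.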
